A study of Mus musculus with 2 samples.

Results

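The retinoic acid genes described here are 9 of the 28692 genes in the count matrices and were chosen by name. They comprise Aldh1a1, Aldh1a2 and Aldh1a3, which make retinoic acid, Cyp26a1 and Cyp26b1, which break it down, the binding proteins Crabp1 and Crabp2, the receptor Rarb and the retinaldehyde reductase Dhrs3. They were read in cells cultured from the base of the newborn mouse heart, split into a dorsal and a ventral domain. The dorsal pool held sinoatrial node, cardiac ganglia and pulmonary veins, and the ventral pool held outflow tract base, proximal aorta and pulmonary artery. Both pools came from the same 15 hearts of the C57Bl6 strain, with no genetic change or treatment given in the labels, taken from male and female mice at 3 days of age. The cells of each pool grew attached to plastic for 5 days, were lifted with trypsin and gave 1 droplet-based library (10x Genomics 3' v3), so that cells which did not attach were not sampled. There was 1 library per domain and therefore no replicate, no test and no p-value between domains. Cells were barcodes with at least 8000 UMIs (unique molecular identifiers, each a counted RNA molecule) and at most 20% mitochondrial UMIs, which left 8926 dorsal and 10649 ventral cells.

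Retinoic acid is made from vitamin A (retinol) by oxidation to retinaldehyde and then, by the ALDH1A enzymes, to the acid. The acid diffuses to nearby cells, where it binds nuclear receptors that act as pairs of a RAR and an RXR on repeated hexamers in the DNA of target genes, and CYP26 enzymes hydroxylate it for removal, so that neighbouring making and degrading cells shape its distribution. In the mouse heart the inflow region and the epicardium, the mesothelium that covers the heart, are known sources through Aldh1a2, and the pathway patterns the inflow and outflow poles of the embryonic heart.

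Rarb and Cyp26a1 are themselves classical target genes of retinoic acid in the mouse, and their promoters are shown because the repeated hexamer that the receptors bind lies in both. Of the 9 genes, 7 had a promoter in the RefSeq table (GRCm38.p6), as 10 windows of 300 bases. A direct repeat of the Rarb type, spelled GTTCANNNNNAGTTCA and searched on both strands, was found in 2 of these windows and in 11 of 32851 windows of all genes (0.0335%). The spelling is that of the Rarb repeat itself, so the match in Rarb was fixed by the choice of pattern. The pattern leaves out the first base of the first hexamer. The stretches before the start site follow, 5′ to 3′ on the gene's own strand, with the matched letters in capitals and that first base in lower case. The Rarb stretch is chr14:16575477-16575726 on the minus strand and the Cyp26a1 stretch is chr19:37697558-37697807 on the plus strand, where the repeat reads on the opposite strand.
Rarb: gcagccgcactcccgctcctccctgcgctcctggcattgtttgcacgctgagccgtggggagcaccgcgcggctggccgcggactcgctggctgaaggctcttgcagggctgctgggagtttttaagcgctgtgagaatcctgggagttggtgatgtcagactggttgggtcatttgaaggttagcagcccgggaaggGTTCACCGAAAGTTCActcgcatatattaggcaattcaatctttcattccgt
Cyp26a1: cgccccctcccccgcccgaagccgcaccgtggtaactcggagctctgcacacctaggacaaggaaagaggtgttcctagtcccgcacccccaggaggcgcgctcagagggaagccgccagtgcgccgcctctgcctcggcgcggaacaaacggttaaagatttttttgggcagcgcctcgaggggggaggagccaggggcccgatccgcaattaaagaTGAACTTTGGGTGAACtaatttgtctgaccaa
The matched letters began at offset -52 from the start site in Rarb and at offset -32 in Cyp26a1. The consensus spelling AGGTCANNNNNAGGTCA was in 3 windows of all genes (0.00913%) and in none of the 10, and the single hexamer AGTTCA, which lies within the Rarb-type repeat, was in 14.0% of all windows. A match describes the letters only and is not a measured binding site.

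The libraries were of like depth. The dorsal cells held 229117951 UMIs, 92.8% of the dorsal matrix, with medians of 22774 UMIs and 4512 genes per cell, and the ventral cells held 253103590 UMIs, 95.6% of the ventral matrix, with medians of 21462 UMIs and 4303 genes. The median mitochondrial share of UMIs was 3.03% in dorsal and 4.12% in ventral cells, and 22 barcodes were shared by both libraries. Levels are given as CPM, a gene's share of all UMIs of the summed cells on the usual scale. They count RNA molecules at their 3′ ends and are not divided by gene length. Intervals are 95% intervals and, like the floor of 3 counts used for a count of 0, cover counting error only. Differences between dissections, cultures and library preparations cannot be told apart from differences between domains. Of 25 cell clusters, found without the retinoic acid genes, 18 had 90% or more of their cells in a single library and held 87.6% of all cells, and such a cluster may stand for its library rather than for a cell type.

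Over all cells, Aldh1a1 and both degrading enzymes were more abundant in the ventral library, while Crabp2 and, by less than 2-fold, Aldh1a2 and Aldh1a3 were more abundant in the dorsal one. By a size of at least 2-fold, Crabp2 was the 1 gene of 9 higher in dorsal cells, where 12.8% of the 15719 genes with at least 50 UMIs were, and Aldh1a1, Cyp26a1 and Cyp26b1 were the 3 of 9 higher in ventral cells, where 6.03% of all genes were. The other 5 were less than 2-fold apart. With a filter of 20 CPM in place of 50 UMIs, 5821 genes were left, of which 4.69% were 2-fold or more toward dorsal and 5.12% toward ventral cells, and of the 2 retinoic acid genes at that level, Aldh1a1 and Dhrs3, Aldh1a1 stood toward ventral cells. The median log2 ratio of dorsal over ventral was -0.17 over the 9 genes and 0.12 over all genes counted. Summed over the 3 making genes, of which Aldh1a1 held most UMIs, the level was 61.9 CPM in dorsal against 149 CPM in ventral cells, for a log2 ratio of -1.27 (interval -1.30 to -1.24). Summed over both degrading genes it was 5.46 CPM in dorsal against 16.3 CPM in ventral cells, for a log2 ratio of -1.58 (interval -1.67 to -1.48). Making UMIs outnumbered degrading UMIs 11.4 to 1 in dorsal and 9.17 to 1 in ventral cells, so the balance of the summed counts differed less between domains than either sum did.

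**Figure D1:**
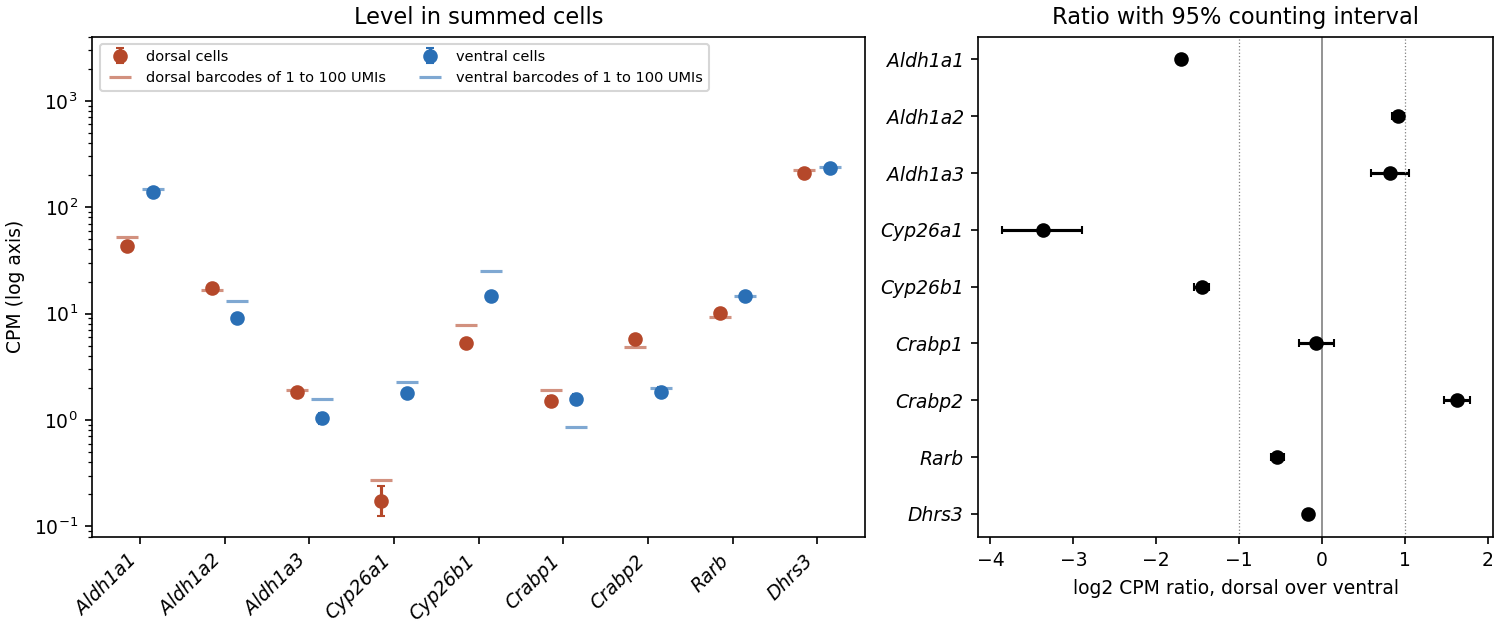
Left, level of each gene in CPM (log axis) in the summed dorsal and ventral cells (points, with 95% counting intervals) and in barcodes of 1 to 100 UMIs of the same libraries (dashes). Right, log2 ratio of dorsal over ventral with its 95% counting interval and dotted lines at 2-fold, where Crabp2 at 1.63 lies beyond the line on the dorsal side and Aldh1a1 at -1.70, Cyp26b1 at -1.45 and Cyp26a1 at -3.36 lie beyond it on the ventral side.

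Aldh1a1 (ENSMUSG00000053279, chr19:20492715-20643465, plus strand, on GRCm38 like all gene positions here) encodes a retinaldehyde dehydrogenase with broad substrates and carried most of the making UMIs. It was at 42.9 CPM in dorsal cells (interval 42.1 to 43.8) and 139 CPM in ventral cells (interval 138 to 140), for a log2 ratio of -1.70 (interval -1.73 to -1.66). After every cell was thinned to 8000 UMIs, 19.9% of dorsal and 48.6% of ventral cells had a UMI of it, against 39.7% and 70.7% before thinning. The lower dorsal level therefore came with fewer cells scoring for the gene. Aldh1a7, a close copy of Aldh1a1 on the same chromosome, was at 0.484 CPM in dorsal against 2.66 CPM in ventral cells, for a log2 ratio of -2.46. Reads shared between the 2 genes could be split between them, which makes the levels of both uncertain to that extent.

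Aldh1a2 (ENSMUSG00000013584, chr9:71215789-71296243, plus strand), the main retinoic acid synthesising enzyme of the mouse embryo and of the epicardium, went the other way. It was at 17.2 CPM in dorsal cells (interval 16.7 to 17.8) and 9.11 CPM in ventral cells (interval 8.74 to 9.49), for a log2 ratio of 0.92 (interval 0.84 to 0.99). In thinned cells, 9.86% of dorsal and 4.34% of ventral cells had a UMI, and 20.3% and 8.76% did before thinning. Aldh1a3 (ENSMUSG00000015134, chr7:66390890-66427517, minus strand), the third enzyme of the family, known from the developing eye and nasal region, was rare at 1.83 CPM in dorsal against 1.04 CPM in ventral cells, for a log2 ratio of 0.82 (interval 0.60 to 1.05). The domain with more making cells thus depended on the gene counted.

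Cyp26b1 (ENSMUSG00000063415, chr6:84571414-84593908, minus strand) encodes a retinoic acid hydroxylase of mesenchyme and carried most of the degrading UMIs. It was at 5.28 CPM in dorsal cells (interval 4.99 to 5.59) and 14.5 CPM in ventral cells (interval 14.0 to 14.9), for a log2 ratio of -1.45 (interval -1.55 to -1.36). A UMI of it was found in 3.36% of dorsal and 7.06% of ventral cells after thinning, and in 6.76% and 13.3% before. Cyp26a1 (ENSMUSG00000024987, chr19:37697798-37701536, plus strand), the hydroxylase whose gene retinoic acid itself induces, had 40 UMIs in 15 dorsal cells and 454 UMIs in 188 ventral cells. That made 0.175 CPM in dorsal against 1.79 CPM in ventral cells, for a log2 ratio of -3.36 (interval -3.87 to -2.89). Only 2 dorsal cells held 50% of the dorsal UMIs, with up to 11 in a single cell, and without the barcodes marked as possible doublets the log2 ratio was -4.55.

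Crabp2 (ENSMUSG00000004885, chr3:87948666-87953376, plus strand), which hands retinoic acid to its nuclear receptors, was at 5.72 CPM in dorsal cells (interval 5.41 to 6.04) and 1.85 CPM in ventral cells (interval 1.69 to 2.02), for a log2 ratio of 1.63 (interval 1.48 to 1.78). Crabp1 (ENSMUSG00000032291, chr9:54764748-54773110, plus strand), which binds retinoic acid in the cytosol, was at 1.501 CPM in dorsal against 1.57 CPM in ventral cells, for a log2 ratio of -0.07 whose interval, -0.28 to 0.15, took in no difference. Both were found in few cells, with a Crabp2 UMI in 3.14% of dorsal and 0.930% of ventral cells and a Crabp1 UMI in 1.12% of dorsal and 0.892% of ventral cells after thinning.

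Rarb (ENSMUSG00000017491, chr14:16430839-16819156, minus strand), a receptor whose gene is also a target of retinoic acid, was at 10.1 CPM in dorsal cells (interval 9.65 to 10.5) and 14.6 CPM in ventral cells (interval 14.1 to 15.1), for a log2 ratio of -0.54 (interval -0.62 to -0.46). Its span overlaps Top2b on the opposite strand, and the strand setting of the counting is not given in the sources used here. Dhrs3 (ENSMUSG00000066026, chr4:144892827-144928209, plus strand), which reduces retinaldehyde back to retinol and is induced by retinoic acid, was the most widely detected of the 9 genes. It was at 208 CPM in dorsal against 235 CPM in ventral cells, for a log2 ratio of -0.17 (interval -0.19 to -0.15), and 71.6% of dorsal and 77.9% of ventral cells had a UMI after thinning.

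RNA free in the droplets gives UMIs in cells that do not express a gene, so levels were also read in barcodes of 1 to 100 UMIs, with 3695308 UMIs in the dorsal library against 6987783 in the ventral one. There, Aldh1a1 was at 52.5 CPM in the dorsal and 149 CPM in the ventral library, Aldh1a2 at 16.8 and 13.0 CPM, and Cyp26b1 at 7.85 and 24.9 CPM. The ventral values of Cyp26b1 (interval 21.3 to 28.9) and Aldh1a2 (interval 10.5 to 16.0) and the dorsal value of Aldh1a1 (interval 45.4 to 60.4) lay above the levels of the cells without overlap of intervals. The intervals of the other 3 values overlapped those of the cells, and the dashes in the plot of levels show all 9 genes. Macrophage-like cells, whose defining genes are those of another lineage, carried 12.9 CPM of Aldh1a1 in the dorsal and 26.8 CPM in the ventral library, and 2.96 and 5.57 CPM of Cyp26b1. They carried 5.27 CPM of Aldh1a2 in the dorsal and 1.01 CPM in the ventral library, 1.21 and 0 CPM of Crabp2 and 0.329 and 0 CPM of Aldh1a3, so this comparison level itself was unequal between the libraries. Their median depth was 43244 UMIs in the dorsal and 27578 UMIs in the ventral library. Levels at or under these are read as background below.

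Cell classes were called from marker genes and are named with the ending "-like", since they describe marker patterns of cultured cells. Heart muscle was almost absent, with 38 dorsal and 30 ventral cardiomyocyte-like cells, and most cells were fibroblast-like. The plot of levels by cluster shows that the 9 genes were spread unequally over the classes.

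**Figure D2:**
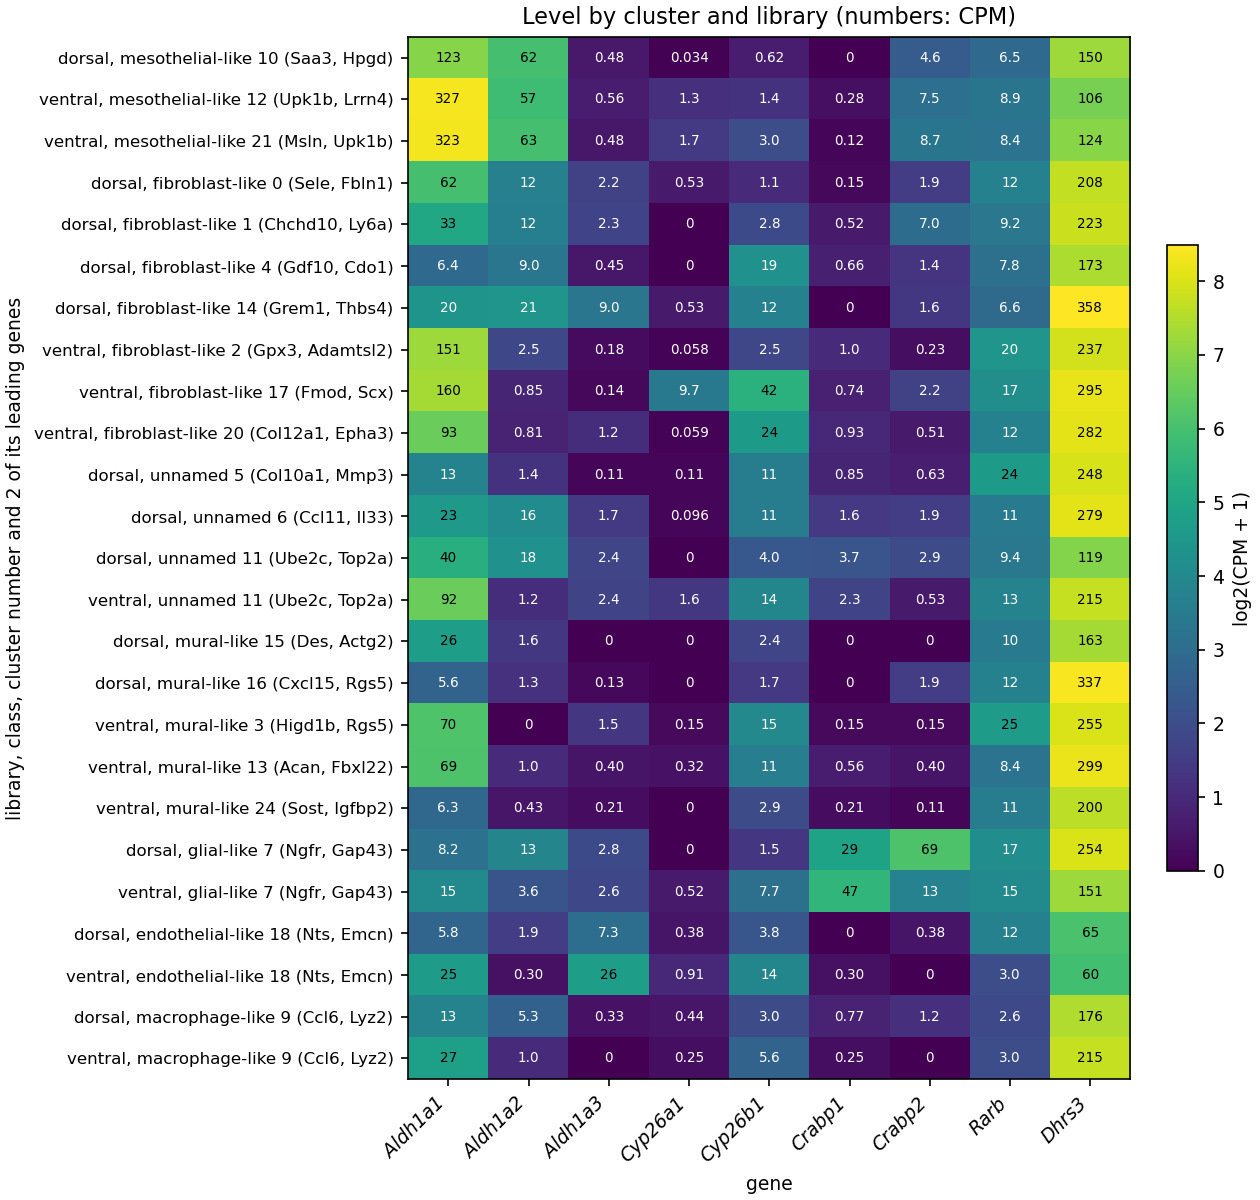
Level of the 9 genes (columns) in each cluster with at least 50 cells of a library (rows, labelled with library, class, cluster number and 2 of its leading genes), as CPM in the cells of the map and as log2(CPM + 1) in the colour. Aldh1a2 stands out in the mesothelial-like rows at 57 to 63 CPM, Cyp26b1 in ventral clusters 17 and 20 and dorsal cluster 4, and Crabp1 and Crabp2 in the glial-like rows.

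Mesothelial-like cells had the highest Aldh1a2 level of the classes that reached 100 cells in both libraries, and over the whole class the domains differed by less than the counting error. They comprised 1035 dorsal cells, nearly all in cluster 10, and 1086 ventral cells, nearly all in clusters 12 and 21. Aldh1a2 was at 61.5 CPM in the dorsal and 61.3 CPM in the ventral ones, for a log2 ratio of 0.00 (interval -0.09 to 0.10). Aldh1a1 was at 124 CPM in dorsal against 323 CPM in ventral mesothelial-like cells, for a log2 ratio of -1.38 (interval -1.43 to -1.32), and was thus lower in dorsal cells here as over all cells. Cyp26b1 was low in both, at 0.610 CPM in dorsal against 2.65 CPM in ventral ones, below the level in macrophage-like cells. Crabp2 was lower in the dorsal cells here, at 4.54 CPM in dorsal against 8.44 CPM in ventral ones, for a log2 ratio of -0.89 (interval -1.20 to -0.59).

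The dorsal name rests on fewer markers than the ventral one, and the class-wide ratios set cells with few markers against cells with many. Cluster 10 passed for 4 of 10 mesothelial markers (Msln, Lrrn4, Wt1 and Bnc1) and was led by Saa3, Hpgd and Adgrd1, while clusters 12 and 21 passed for 9. Msln, which encodes the mesothelial surface protein mesothelin, had a UMI in 41.2% of cluster 10 cells and in 89.6% of cluster 21 cells after thinning. The markers of each cell were likewise counted after thinning. Within cluster 10, Aldh1a2 was at 60.8 CPM in the 728 cells with 0 to 2 of the markers and at 64.9 CPM in the 297 cells with 3 to 10, 2 levels with overlapping intervals. In the ventral clusters it was at 22.7 CPM in the 103 cells of cluster 21 and 14.6 CPM in the 20 cells of cluster 12 with 0 to 2 markers, and at 67.2 and 61.4 CPM in the 770 and 187 cells with 3 to 10. The domains were thus close in cells with 3 to 10 markers, while cells with 0 to 2 were higher in dorsal cluster 10 than in either ventral cluster, without overlap of intervals. Aldh1a1 followed the markers in both libraries, at 95.4 CPM in dorsal against 145 and 146 CPM in ventral cells of clusters 21 and 12 with 0 to 2 markers, and at 191 CPM in dorsal against 344 CPM in each ventral cluster with 3 to 10. Crabp2 was at 3.96 CPM in dorsal against 2.69 and 3.24 CPM in ventral cells of clusters 21 and 12 with 0 to 2 markers, with overlapping intervals, and at 6.17 CPM in dorsal against 9.44 and 7.92 CPM in ventral cells with 3 to 10. The ventral intervals with 0 to 2 markers, 1.08 to 5.55 in cluster 21 and 0.393 to 11.7 in cluster 12, were wide. They cannot show whether the lower dorsal level of the class held in cells with few markers. With 3 to 10 markers the dorsal interval, 4.61 to 8.09, overlapped that of cluster 12, 5.92 to 10.4. It did not overlap that of cluster 21, 8.21 to 10.8.

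Across all cells, whatever their cluster, Aldh1a2 increased with the number of mesothelial markers in both libraries, but from different starting levels. It was at 11.9, 33.4, 55.0 and 78.2 CPM in dorsal cells with 0, 1 to 2, 3 to 4 and 5 to 10 markers, and at 1.40, 3.53, 35.0 and 76.1 CPM in the matching ventral cells. The domains were level in the cells with most markers and far apart in those with none. Aldh1a1 was lower in dorsal cells in every bin, at 30.9 CPM in dorsal against 111 CPM in ventral cells without a marker and at 248 CPM in dorsal against 373 CPM in ventral cells with 5 to 10. Cyp26b1 ran opposite to the markers, at 6.09 CPM in dorsal against 17.1 CPM in ventral cells without a marker, and at 0.660 CPM in dorsal against 2.22 CPM in ventral cells with 5 to 10. Crabp2 changed sides, at 7.59 CPM in dorsal (interval 5.51 to 10.2) against 2.63 CPM in ventral cells (interval 1.63 to 4.03) with 3 to 4 markers, and at 2.64 CPM in dorsal (interval 1.14 to 5.20) against 11.3 CPM in ventral cells (interval 9.94 to 12.8) with 5 to 10. Deeper cells are more likely to show a marker, and the part of depth in these trends was not tested.

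**Figure D3:**
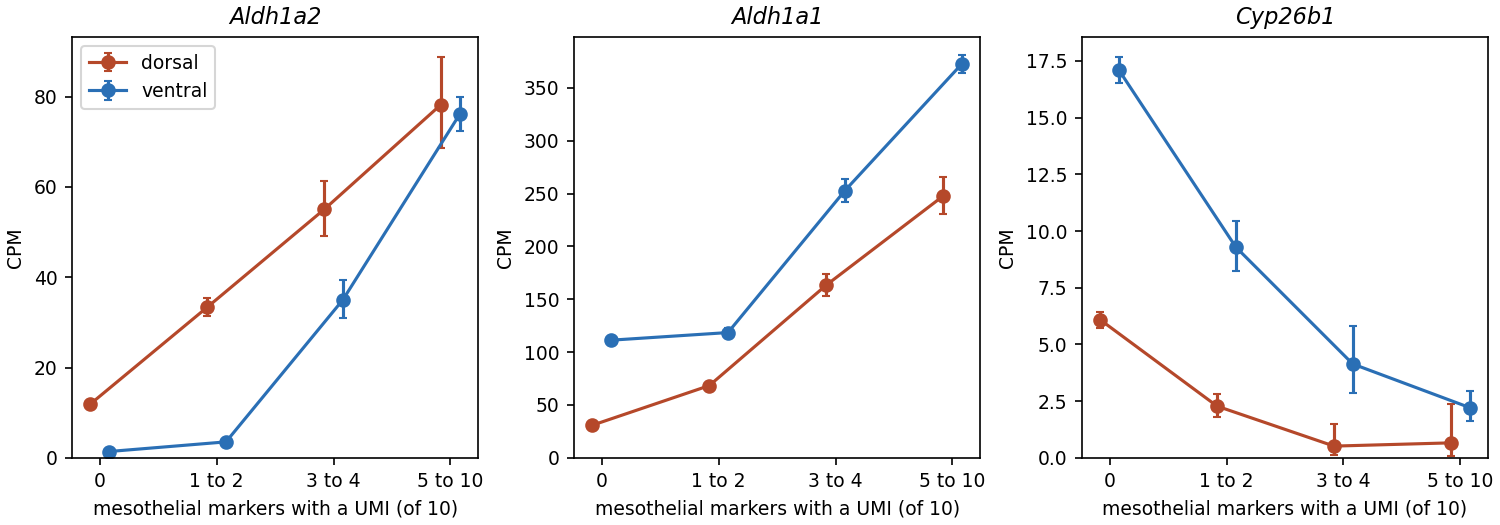
Level (CPM, with 95% counting intervals) of Aldh1a2, Aldh1a1 and Cyp26b1 in cells grouped by how many of 10 mesothelial markers had a UMI, in the dorsal and ventral libraries. Aldh1a2 meets at 78.2 CPM in dorsal against 76.1 CPM in ventral cells with 5 to 10 markers and stands at 11.9 CPM in dorsal against 1.40 CPM in ventral cells without one.

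Fibroblast-like cells, the largest class with 5085 dorsal and 6580 ventral cells, differed between domains in most of the 9 genes. They lay in different clusters, mainly 0, 1, 4 and 14 for dorsal and 2, 17 and 20 for ventral cells. Aldh1a2 was at 11.7 CPM in dorsal against 1.59 CPM in ventral fibroblast-like cells, for a log2 ratio of 2.88 (interval 2.69 to 3.08), and Aldh1a3 at 2.32 and 0.491 CPM, for a log2 ratio of 2.24 (interval 1.87 to 2.62). The Aldh1a2 ratio of macrophage-like cells, read as background, was 2.38 at 5.27 and 1.01 CPM. Its interval, 0.93 to 4.31, took in that of fibroblast-like cells but was wide, resting on 48 dorsal and 4 ventral UMIs. In the barcodes read for free RNA, Aldh1a2 was at 16.8 CPM in the dorsal and 13.0 CPM in the ventral library. The part of background in the Aldh1a2 ratio of fibroblast-like cells was not tested. Aldh1a1 was at 37.0 CPM in dorsal against 134 CPM in ventral ones, for a log2 ratio of -1.86 (interval -1.90 to -1.81). In this class, Aldh1a2 and Aldh1a3 were thus the more abundant on the dorsal side and Aldh1a1 on the ventral side.

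The degrading enzymes and binding proteins differed in the same cells. Cyp26b1 was at 6.14 CPM in dorsal against 18.4 CPM in ventral fibroblast-like cells, for a log2 ratio of -1.58 (interval -1.69 to -1.47). Cyp26a1 was at 0.229 CPM in dorsal against 2.27 CPM in ventral ones, for a log2 ratio of -3.30 that was -4.88 without possible doublets. Crabp2 was at 3.73 CPM in dorsal against 0.775 CPM in ventral ones, for a log2 ratio of 2.27 (interval 1.98 to 2.57). In all, Aldh1a2, Aldh1a3 and Crabp2 lay 2-fold or more toward dorsal fibroblast-like cells, where 10.3% of 14255 genes were, and Aldh1a1, Cyp26a1, Cyp26b1 and Crabp1 were so in ventral ones, where 6.21% were. Rarb, at 9.78 CPM in dorsal against 17.0 CPM in ventral cells, and Dhrs3, at 217 and 265 CPM, were less than 2-fold apart.

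Cyp26b1 was concentrated in a few of the clusters with at least 50 cells of a library, which are the ones ranked here and below. It was highest in ventral cluster 17, led by the tendon genes Fmod and Scx, at 41.8 CPM (interval 39.7 to 43.9), followed without overlap of intervals by ventral cluster 20, led by Col12a1 and Epha3, at 23.7 CPM (interval 22.3 to 25.04) and dorsal cluster 4, led by Gdf10 and Cdo1, at 18.7 CPM (interval 17.2 to 20.4). Ventral mural-like cluster 3 came next at 14.8 CPM, and its interval, 12.0 to 18.1, overlapped that of cluster 4. Cluster 17 also held 75.8% of the ventral Cyp26a1 UMIs, at 9.73 CPM. Ventral cluster 2, the largest fibroblast-like cluster, led by Gpx3 and Adamtsl2, had 2.50 CPM of Cyp26b1 and 151 CPM of Aldh1a1, while dorsal cluster 0, led by Sele and Fbln1, had 1.05 CPM of Cyp26b1 and 62.2 CPM of Aldh1a1.

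Glial-like cells were 468 dorsal and 195 ventral cells in a single cluster with Ngfr as a leading gene. In each library this cluster had the highest levels of both binding proteins among those with at least 50 cells. For ventral Crabp2 its interval, 9.34 to 16.7, overlapped that of mesothelial-like cluster 21, 7.62 to 9.98. Glial-like cells were 5.24% of dorsal and 1.83% of ventral cells but held 67.7% of dorsal and 45.5% of ventral Crabp1 UMIs. Crabp1 was at 29.5 CPM in dorsal against 46.7 CPM in ventral glial-like cells, for a log2 ratio of -0.66 (interval -0.95 to -0.37), and Crabp2 at 69.2 and 12.6 CPM, for a log2 ratio of 2.45 (interval 2.03 to 2.91). These cells thus held 41.8% of dorsal but 10.5% of ventral Crabp2 UMIs, where mesothelial-like cells held 58.5%. Aldh1a2 in the same cells was at 13.4 CPM in dorsal against 3.61 CPM in ventral ones, for a log2 ratio of 1.89 (interval 1.08 to 2.81), and Dhrs3 at 254 and 151 CPM, for a log2 ratio of 0.76 (interval 0.62 to 0.89). Macrophage-like cells, read as background, had an Aldh1a2 log2 ratio of 2.38 (interval 0.93 to 4.31), at 5.27 and 1.01 CPM. That ratio rested on 48 dorsal and 4 ventral UMIs, and its wide interval cannot show whether the glial-like ratio differed from it. In the barcodes read for free RNA, Aldh1a2 was at 16.8 CPM in the dorsal and 13.0 CPM in the ventral library. The part of background in the Aldh1a2 ratio of glial-like cells was not tested. Aldh1a1 in glial-like cells, at 8.23 CPM in dorsal against 15.5 CPM in ventral cells, was at background. The median depth was 13263 UMIs in dorsal and 17412 UMIs in ventral glial-like cells.

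Aldh1a3 was highest in endothelial-like cells, a shared cluster of 106 dorsal and 146 ventral cells, at 7.31 CPM in dorsal against 25.9 CPM in ventral ones. The log2 ratio of -1.83 (interval -2.63 to -1.09) rested on 19 dorsal and 85 ventral UMIs and was -3.09 without possible doublets. In the fibroblast-like class the highest Aldh1a3 level was in dorsal cluster 14, led by Grem1 and Thbs4, at 9.05 CPM (interval 7.24 to 11.2), which overlapped that of dorsal endothelial-like cells.

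Mural-like cells, the smooth muscle and pericyte type, comprised 610 dorsal cells, mainly in clusters 15 and 16, and 1569 ventral cells, mainly in clusters 3, 13 and 24. Aldh1a1 was at 12.6 CPM in the dorsal ones, the level of macrophage-like cells, and at 47.3 CPM in the ventral ones, for a log2 ratio of -1.91 (interval -2.17 to -1.65). Cyp26b1 was at 2.43 CPM in dorsal mural-like cells, under the 2.96 CPM of dorsal macrophage-like cells and so at background, and at 9.52 CPM in ventral ones. Its log2 ratio of -1.97 (interval -2.61 to -1.39) was -0.99 when the pathway genes were kept in the clustering and -2.59 without possible doublets. Rarb differed little, at 12.2 CPM in dorsal against 13.0 CPM in ventral ones, and Aldh1a2 was below 2 CPM in both. Rarb was highest in ventral mural-like cluster 3 at 25.1 CPM (interval 21.4 to 29.2) and in dorsal unnamed cluster 5, led by Col10a1 and Mmp3, at 23.7 CPM (interval 20.7 to 27.0), whose intervals overlapped. Among clusters with at least 50 cells of a library, Dhrs3 was highest in dorsal clusters 14 and 16 at 358 and 337 CPM, with overlapping intervals, and lowest in endothelial-like cells at 65.4 CPM in dorsal against 59.8 CPM in ventral ones.

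Cells were next counted as making (a UMI of Aldh1a1, Aldh1a2 or Aldh1a3) and as degrading (a UMI of Cyp26a1 or Cyp26b1), after thinning to 8000 UMIs each. Making cells were 27.4% of dorsal (interval 26.5 to 28.3) and 50.1% of ventral cells (interval 49.1 to 51.0). Degrading cells were 3.43% of dorsal (interval 3.06 to 3.83) and 7.77% of ventral cells (interval 7.26 to 8.29). Both kinds were thus fewer in the dorsal library, with 7.997 making cells per degrading cell in dorsal and 6.45 in ventral cells. Before thinning, making cells were 48.8% of dorsal and 72.1% of ventral cells, and degrading cells 6.90% and 14.4%. With Aldh1a2 as the only making gene the order turned over, at 9.86% of dorsal and 4.34% of ventral cells.

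The domains also differed in how far making and degrading coincided. Cells with both kinds of UMI were 0.415% of dorsal and 3.98% of ventral cells. Among degrading cells, 12.1% of dorsal (interval 8.66 to 16.3) and 51.3% of ventral ones (interval 47.8 to 54.7) also had a making UMI. Among cells without a degrading UMI, 28.0% of dorsal and 49.99% of ventral ones had a making UMI. The intervals of these shares did not overlap in the dorsal library, where the share was lower among degrading cells, and overlapped in the ventral library. The dorsal share among degrading cells was near the 11.7% (interval 7.59 to 17.1) of dorsal macrophage-like cells with a making UMI.

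**Figure D4:**
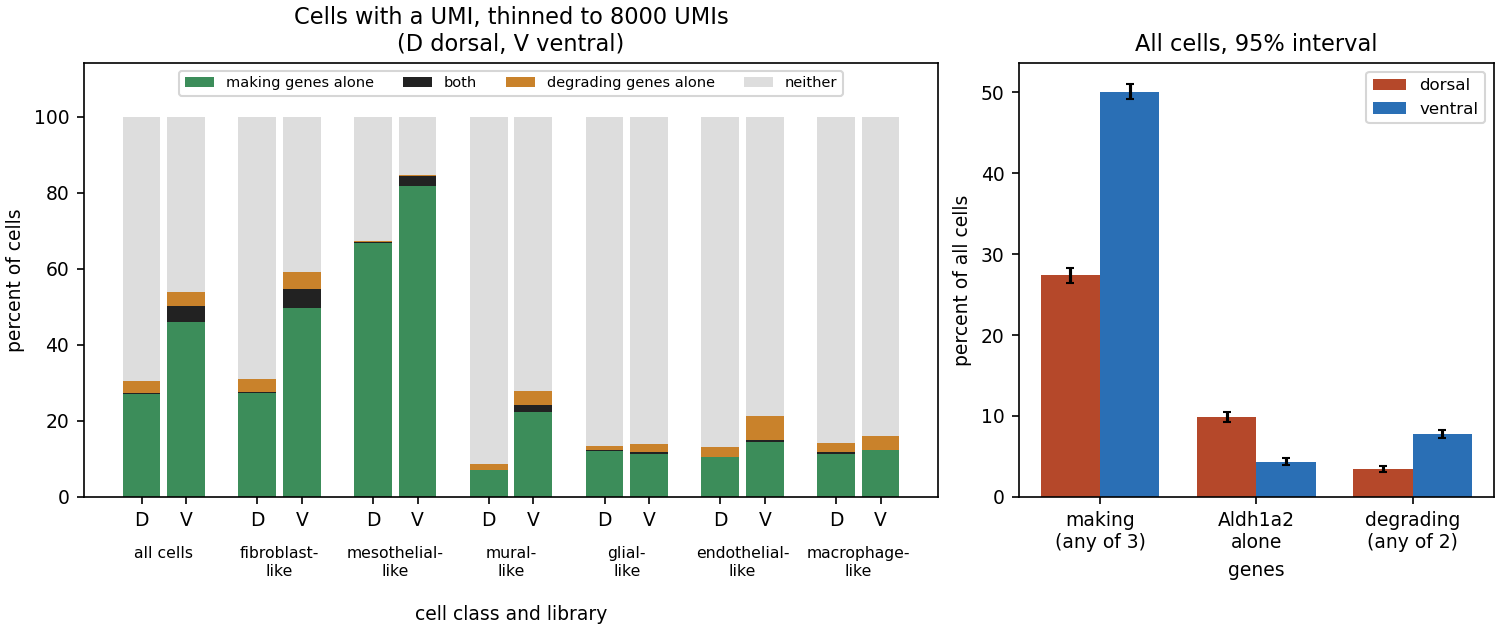
Left, percent of cells with UMIs of making genes alone, degrading genes alone, both or neither after thinning to 8000 UMIs, for all cells and by class in the dorsal (D) and ventral (V) libraries. Right, percent of all cells with a UMI of any making gene, of Aldh1a2 and of any degrading gene with 95% intervals, at 27.4%, 9.86% and 3.43% in dorsal and 50.1%, 4.34% and 7.77% in ventral cells.

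By class, making cells were 67.1% of dorsal and 84.3% of ventral mesothelial-like cells, 27.7% of dorsal and 54.8% of ventral fibroblast-like cells and 7.05% of dorsal and 24.0% of ventral mural-like cells. Degrading cells were 0.676% of dorsal and 2.85% of ventral mesothelial-like cells, 3.70% of dorsal and 9.35% of ventral fibroblast-like cells and 1.64% of dorsal and 5.48% of ventral mural-like cells. Glial-like cells, with 12.4% of dorsal and 11.8% of ventral cells making, were at the share of macrophage-like cells, at 11.7% of dorsal and 12.2% of ventral ones. Degrading macrophage-like cells were 3.06% of dorsal and 3.82% of ventral ones, so the degrading shares of mesothelial-like, dorsal mural-like and glial-like cells were read as background. The dorsal shares over all cells and over fibroblast-like cells also lay within the dorsal macrophage-like interval, 1.13 to 6.54, and dorsal cluster 4, at 8.21% (interval 6.85 to 9.75), lay above it.

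In the dorsal library the clusters with most making cells differed from the one with most degrading cells, while ventral cluster 17 was high in both. Dorsal cluster 4 held 38.9% of dorsal degrading cells, with 8.21% of its cells degrading and 8.56% making, a making share at background. Dorsal clusters 0 and 10 each held 28.1% of dorsal making cells, and their degrading shares were 0.641% and 0.683%. Dorsal cluster 14 was above the dorsal share in both, with 29.6% of its cells making and 7.399% degrading (interval 5.08 to 10.3), and held 10.1% of dorsal degrading cells. Dorsal cluster 6, unnamed and led by Ccl11 and Il33, held 12.1% of them, with 22.0% of its cells making and 6.94% degrading (interval 4.93 to 9.44). Ventral cluster 17 held 42.8% of ventral degrading cells, with 23.7% of its cells degrading, 59.5% making and 14.4% both. Ventral cluster 20 held a further 26.0%, with 10.6% of its cells degrading and 47.1% making. Ventral cluster 2 held 32.8% of ventral making cells, with 57.7% of its cells making and 1.52% degrading. Cells with an Aldh1a2 UMI were mesothelial-like in 45.2% of dorsal and 77.7% of ventral cases.

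Gene by gene, Cyp26b1 was less frequent in cells with an Aldh1a2 UMI than in those without in both libraries. It was found in 1.14% of 880 dorsal cells with Aldh1a2 (interval 0.546 to 2.08) against 3.60% of those without (interval 3.21 to 4.03), and in 3.25% of 462 ventral cells with it (interval 1.83 to 5.30) against 7.23% of those without (interval 6.74 to 7.76). For Aldh1a1 the same was so in the dorsal library, with 1.35% of cells with Aldh1a1 (interval 0.867 to 2.003) against 3.86% without (interval 3.43 to 4.33). In the ventral library the shares were 7.15% with Aldh1a1 (interval 6.46 to 7.88) and 6.98% without (interval 6.32 to 7.69). Cyp26b1 was in 23.5% of ventral cells with Cyp26a1 (interval 15.5 to 33.1) and 6.91% of those without. Ventral cluster 17, which held 75.8% of ventral Cyp26a1 UMIs, had Cyp26b1 in 20.4% of all its cells. Crabp2 was in 26.0% of dorsal cells with Crabp1 (interval 17.7 to 35.7) and 2.88% of those without. Dorsal glial-like cells, which held 67.7% of dorsal Crabp1 UMIs, had Crabp2 in 29.1% of all their cells. The shares with and without a gene pool all clusters. Whether genes went together or apart within a cluster was not tested.

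The wider pathway was described by 47 further genes, of which 40 had at least 50 UMIs. Of these 40, 9 stood 2-fold or more toward dorsal cells, where 12.8% of all genes were, and 4 toward ventral cells, where 6.03% were, and their median log2 ratio of 0.12 was that of all genes. Among 10 genes of retinol uptake, storage and transport, 7 were counted, with a median of -0.62. Rbp4, which encodes the secreted retinol carrier, was at 20.7 CPM in dorsal against 0.881 CPM in ventral cells, for a log2 ratio of 4.56 (interval 4.36 to 4.76), with 59.0% of its dorsal UMIs in fibroblast-like cells. Bco1, which cleaves beta-carotene, had a log2 ratio of -1.08 (interval -1.89 to -0.31). Lrat, which esterifies retinol for storage, was at 2.68 CPM in dorsal against 3.46 CPM in ventral cells.

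The 9 dehydrogenases and related oxidoreductases had a median log2 ratio of 0.22, with 3 of them 2-fold or more toward dorsal cells and none toward ventral cells. Adh1, an alcohol dehydrogenase that also oxidises retinol, was at 8.78 CPM in dorsal against 0.198 CPM in ventral cells, for a log2 ratio of 5.47 (interval 5.07 to 5.91), and 78.4% of its dorsal UMIs were in fibroblast-like cells. Adh7, of the same family, had 92 dorsal and 10 ventral UMIs, for a log2 ratio of 3.35 (interval 2.40 to 4.45). Dhrs9 was at 3.15 CPM in dorsal against 1.20 CPM in ventral cells, for a log2 ratio of 1.39, with most of its UMIs in mesothelial-like cells (59.0% of dorsal and 76.3% of ventral ones). Rdh10, which makes retinaldehyde in the mouse embryo, was just inside the limit, at 9.28 CPM in dorsal against 4.75 CPM in ventral cells, for a log2 ratio of 0.97 (interval 0.86 to 1.07).

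Of 3 other cytochrome P450 genes, Cyp26c1 had no UMI in cells of either library. Cyp1b1, an oxidase with retinoids among its substrates, was at 153 CPM in dorsal against 61.0 CPM in ventral cells, for a log2 ratio of 1.32. Cyp2s1 had a log2 ratio of 0.04, with 82.0% of dorsal and 93.6% of ventral UMIs in mesothelial-like cells. The 9 receptor, corepressor and carrier genes had a median of 0.14, and 1 was at least 2-fold apart. That gene, Rxrg, had 118 dorsal and 10 ventral UMIs, for a log2 ratio of 3.70 (interval 2.78 to 4.80). Rara, Rarg, Rxra and Rxrb, at log2 ratios of 0.14, 0.45, 0.11 and 0.67, were less than 2-fold apart.

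Of 18 genes known to respond to retinoic acid in the mouse, 14 were counted, with a median of 0.19, and 3 stood 2-fold or more toward dorsal and 3 toward ventral cells, beside 12.8% and 6.03% of all genes. Tbx5, a T-box factor of the inflow heart, was at 6.02 CPM in dorsal against 0.936 CPM in ventral cells, for a log2 ratio of 2.69, and Hoxa5 at 36.2 and 13.6 CPM, for a log2 ratio of 1.41. Nr2f1, an orphan nuclear receptor, was at 18.4 CPM in dorsal against 9.02 CPM in ventral cells, for a log2 ratio of 1.03. On the ventral side stood Tgm2, which encodes a transglutaminase, at 47.3 CPM in dorsal against 107 CPM in ventral cells, for a log2 ratio of -1.18.

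**Figure D5:**
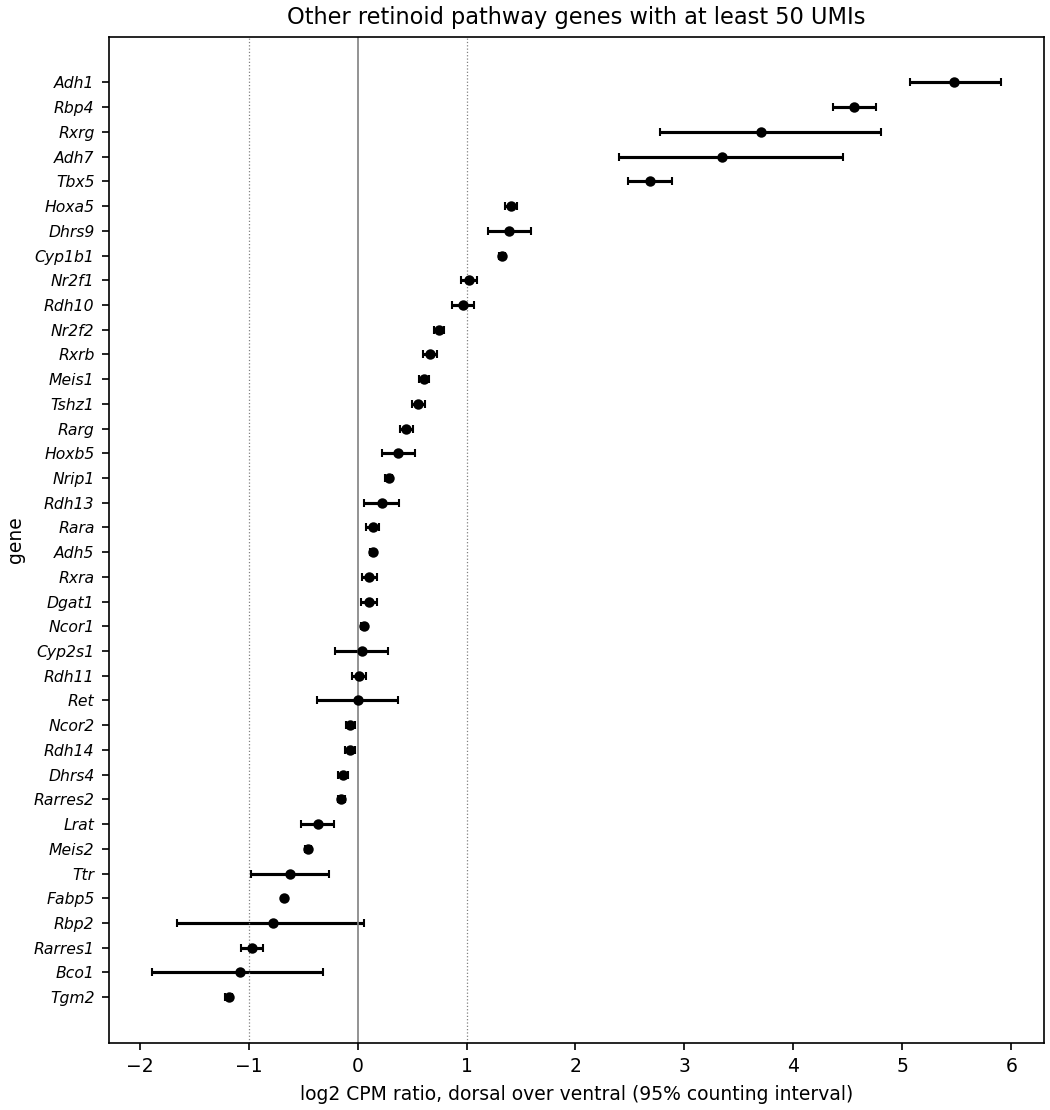
Log2 ratio of dorsal over ventral CPM, with 95% counting intervals, of the further pathway genes with at least 50 UMIs, without 2 that are not reported here, and dotted lines at 2-fold. Adh1 at 5.47 and Rbp4 at 4.56 lie farthest on the dorsal side, and Tgm2 at -1.18 and Bco1 at -1.08 lie beyond the line on the ventral side.

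Genes with the most similar distribution were sought by Pearson's r of log2(CPM + 1) over the 25 sums of 1 cluster in 1 library with at least 50 cells. These points share libraries and depth, and the values are a description. Aldh1a2 was most like Adgrd1 (r = 0.918), which was also a leading gene of dorsal cluster 10, then Zdbf2 (0.878) and Igfbp6 (0.863). Aldh1a1 was most like Zbtb7c (0.901), Tdrp (0.885) and Scel (0.864). Aldh1a3 was most like Fgd5 (0.851), followed by Rnf125 (0.843) and Nmd3 (0.838). Cyp26b1 was most like Fst (0.808), which encodes follistatin and led ventral cluster 20, then Adamtsl3 (0.634) and Col12a1 (0.614), and Cyp26a1 most like Timp3 (0.713), a leading gene of cluster 17, then Dusp22 (0.622) and Aurkaip1 (0.582). Crabp1 was most like Pcdh20 (0.927), Thap2 (0.919) and Gldn (0.917), and Crabp2 most like Xrcc5 (0.841), Slc25a51 (0.829) and Metrn (0.826). Rarb was most like Adamts5 (0.818), Nek8 (0.812) and Snai2 (0.784), and Dhrs3 most like Gnao1 (0.850), St6galnac6 (0.831) and Dkk3 (0.799). The closest matches of the degrading genes were looser than those of Aldh1a1, Aldh1a2 and Crabp1.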

How the data were processed

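Raw UMI counts per gene and barcode were deposited by the authors for both libraries, without normalisation or selection of cells (28692 genes). The reference was mm10 and the counting tool Cell Ranger 3.0.2, per the submitters' processing notes. Which annotation and strand setting it used is not given in the sources used here. Gene positions come from GENCODE M21 on GRCm38, which matched 28416 gene IDs. The gene lists and comparisons were chosen with earlier results of these data known.

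Cells had at least 8000 UMIs and at most 20% mitochondrial UMIs. Scrublet in scanpy 1.11.5 marked 0% of dorsal barcodes and was counted as failed below 0.5%, so the top-scoring barcodes up to the expected doublet rate were marked instead (665 cells, 7.45%). In the ventral library 626 cells (5.88%) were marked. Marked cells were kept and removed in an alternative, and the removal within classes was chosen after seeing the data. Both libraries were clustered together without the retinoic acid and pathway genes (1981 variable genes, 30 principal components, 15 neighbours, Leiden resolution 1.0). A cluster took the class with most markers that reached 25% of its cells and were 2-fold or more above the other cells, with 5 CPM added and no fewer than 3 markers, or fibroblast-like with at least 5 fibroblast markers in 50% of its cells, and the mural class pooled the markers of smooth muscle and pericytes.

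CPM came from summed counts, with exact Poisson intervals; ratios have exact conditional binomial intervals and shares Clopper-Pearson intervals, all at 95%. Thinning drew 8000 UMIs per cell without replacement, which left no cell out. No test was made, with 1 library per domain. TMM factors of edgeR 4.0.16, other UMI, mitochondrial, count and fold limits, and other clusterings were alternatives. The intervals of ratios were checked on simulated counts that held counting error only, which cannot show the spread between libraries or cultures. Named genes were the 9, pathway genes with at least 50 UMIs at least 2-fold apart, up to 4 others per list, and the 3 most similar genes of each. The values of 2 pathway genes are not reported here.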

Additional observations from a re-analysis of the deposited data

Results flagged for a closer look

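For 3 genes the log2 ratio of dorsal over ventral had opposite signs in different cell classes, each with a counting interval on 1 side of 0. Crabp2 was at 2.45 in glial-like and 2.27 in fibroblast-like cells but at -0.89 in mesothelial-like cells. In the mesothelial-like clusters 10, 12 and 21, the intervals of cells with 0 to 2 markers overlapped between domains. Over all cells, whatever their class, Crabp2 was at 7.59 CPM in dorsal against 2.63 CPM in ventral cells with 3 to 4 mesothelial markers. With 5 to 10 markers it was at 2.64 CPM in dorsal against 11.3 CPM in ventral cells. Aldh1a3 was at 2.24 in fibroblast-like and -1.83 in endothelial-like cells. Dhrs3 was at 0.76 in glial-like, 0.31 in mesothelial-like and 0.18 in mural-like cells but at -0.29 in fibroblast-like and -0.29 in macrophage-like cells, all less than 2-fold. With 1 library per domain these differences between classes were not tested. The glial-like, endothelial-like and macrophage-like cells of both domains shared a cluster, while the other classes were drawn from different clusters in each domain.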

How the results depend on the processing

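Of 147 values under alternative settings, no log2 ratio whose interval lay on 1 side of 0 changed sign, 105 stayed within their own counting interval or within 1.5 times their count, and 42 moved. Among the log2 ratios, the changes of over 1.5-fold were those of Cyp26a1, Aldh1a3 and Cyp26b1 given above, and shares of cells changed by more. Over genes at 20 CPM or more, 2 of the 9 genes were left, with 0 of them 2-fold or more toward dorsal and 1 toward ventral cells, and at 1.5-fold 3 of 9 were higher in dorsal cells, where 21.1% of all genes were, and 3 in ventral cells, where 11.4% were. Making cells were 31.0% of dorsal and 52.4% of ventral cells at a minimum of 15000 UMIs, 48.8% and 72.1% without thinning, 9.57% and 25.6% with at least 2 UMIs required, and 9.86% and 4.34% with Aldh1a2 alone, the 1 setting that turned the order of the domains. Degrading cells were 2.99% of dorsal cells at 15000 UMIs, 6.90% of dorsal and 14.4% of ventral cells without thinning, and 0.863% and 2.81% with at least 2 UMIs. Cells with both were 2.52% of dorsal and 11.4% of ventral cells without thinning. Of 20 wider pathway genes at 20 CPM, 3 were 2-fold or more toward dorsal cells, where 4.69% of all genes were, and 2 toward ventral cells, where 5.12% were. TMM scaling took the median log2 ratio of all genes to 0.01, against 0.12 without it. No paired analysis was possible because each domain had 1 library. Depth limits Cyp26a1, Aldh1a3 and Crabp1 most, and no setting stands in for a second library.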
